A study of Mus musculus with 4 samples.

Results

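The Tmprss11 genes are 7 neighbouring genes of mouse chromosome 5 (Tmprss11a to Tmprss11g) that lie between Gnrhr and Ythdc1 and encode membrane-anchored serine proteases. Open chromatin around them was taken from peaks of ATAC-seq, an assay that marks accessible DNA by the places where a transposase can cut it and attach adapters. A region belonged to the cluster when one of the 7 genes was the closest protein-coding gene to its midpoint, at no more than 100 kb from the gene body. Overlapping peaks of the genotypes were merged into 1 region. The rule gave 23 regions out of 70878 that could be assigned to a gene and 79122 in all. The genes were chosen by the difference between the peak lists described here, so their counts by genotype are a description and carry no test.

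The cells were hair follicle stem cells of male mice at postnatal day 70, when follicles are in their second rest (telogen). Wild-type (WT) mice had the genotype NFIBfl/fl;NFIXfl/fl;R26-YFPfl/fl, without Cre. The double knockout (dKO) mice were littermates that had the same alleles and Sox9-CreER, a Cre driven from Sox9, a gene active in these stem cells, which needs an inducing ligand. All mice therefore carried the floxed alleles and the YFP reporter. Sorted cells lacked DAPI and Sca-1 staining and carried integrin alpha 6 and CD34, and the dKO sort asked for YFP as well. There were 2 mice of each genotype and 1 peak list per genotype, so the spread between mice is unknown for every difference given, and genotype, mouse, sort gate and library cannot be told apart.

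NFIB and NFIX belong to the nuclear factor I (NFI) family of transcription factors, which bind DNA as dimers. The TMPRSS11 proteins belong to the HAT/DESC group of type II transmembrane serine proteases. Each has a short cytoplasmic tail, a membrane-spanning segment, a stem with a SEA domain and a trypsin-like catalytic domain outside the cell. The group is known from stratified and airway epithelia: TMPRSS11D is the airway trypsin-like protease, TMPRSS11E is also known as DESC1, from work on squamous cell carcinoma, and TMPRSS11F contributes to the epidermal barrier of the mouse. Tmprss11g is also listed as Desc4.

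The promoters of Tmprss11c, Tmprss11d, Tmprss11f and Tmprss11a are shown first, and the open regions of these 4 genes lay away from their starts. The Tmprss11a promoter was taken because this gene had most regions, and the others were added after the data were seen. Sequences are from RefSeq on GRCm38.p6, the assembly that mm10 names. Start sites were found there for 6 of the 7 genes, all on the minus strand, and Tmprss11e had no entry. Capitals mark the NFI core site TTGGC (the part that 1 subunit of the dimer contacts), searched on both strands in the 250 bases before the start. The stretches shown are chr5:86289309-86289558 for Tmprss11c, chr5:86373388-86373637 for Tmprss11d, chr5:86632425-86632674 for Tmprss11f and chr5:86469176-86469240 for Tmprss11a. For Tmprss11a only the 65 bases outside the gene body are given, because its listed start lies 185 bases inside it.
Tmprss11c: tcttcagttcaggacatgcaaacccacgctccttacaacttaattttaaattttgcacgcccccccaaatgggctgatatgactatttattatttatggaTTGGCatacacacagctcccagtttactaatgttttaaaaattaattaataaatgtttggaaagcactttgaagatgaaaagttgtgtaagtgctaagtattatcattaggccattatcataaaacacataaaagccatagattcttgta
Tmprss11d: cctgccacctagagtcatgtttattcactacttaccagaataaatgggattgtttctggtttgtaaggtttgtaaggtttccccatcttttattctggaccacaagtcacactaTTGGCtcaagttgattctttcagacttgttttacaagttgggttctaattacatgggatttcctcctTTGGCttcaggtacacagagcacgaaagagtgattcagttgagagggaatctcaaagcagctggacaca
Tmprss11f: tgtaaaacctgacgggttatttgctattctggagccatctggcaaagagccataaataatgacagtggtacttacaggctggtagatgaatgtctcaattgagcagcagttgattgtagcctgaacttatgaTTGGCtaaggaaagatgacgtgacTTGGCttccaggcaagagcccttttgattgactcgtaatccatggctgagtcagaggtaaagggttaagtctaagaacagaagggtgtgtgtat
Tmprss11a: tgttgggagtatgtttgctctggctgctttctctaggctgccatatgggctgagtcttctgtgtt

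The core site occurred once in the Tmprss11c promoter, with its first base 150 bases before the start. In Tmprss11d its first base stood at 136 and at 69 bases before the start, and in Tmprss11f at 118 and at 94. The windows of Tmprss11a, Tmprss11b and Tmprss11g held none, and those of Tmprss11b and Tmprss11g are not shown. The promoters added after the data were seen were thus the 3 with the core site. Thus 3 of 6 promoters held the core site, against 41.5% of 32851 promoters in the table. The full palindrome, TTGGC and GCCAA with 5 bases between them, occurred in 0 of the 6 and in 0.0365% of all. A match of letters does not show binding, and the sequence under the peaks themselves was not analysed here.

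The cluster had regions found only in the dKO list and none found only in the WT list. Of 23 regions, 17 were found only in dKO (73.9%, exact 95% binomial interval 51.6 to 89.8), 6 were shared (26.1%, 10.2 to 48.4) and 0 were found only in WT (exact interval up to 14.8%). By the rule of 3 counts, this 0 allows a share of up to 13.04%. Over all regions assigned to genes, 12.8% were dKO-only, 21.2% were WT-only and 66.0% were shared. These values were used by the choice of the cluster. The intervals cover counting error only, and neighbouring regions are not independent, since they share a locus and a list.

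**Figure D1:**
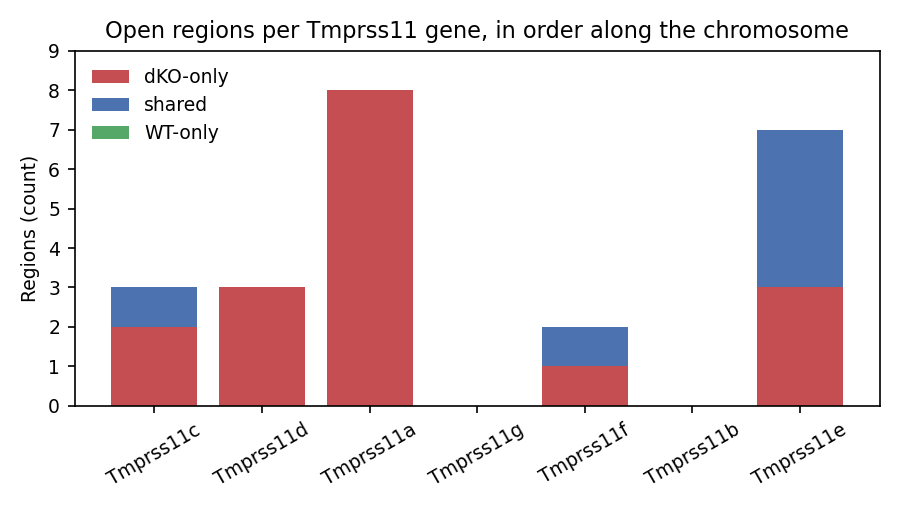
Number of open regions (y axis, count) for each Tmprss11 gene (x axis, in chromosome order), stacked by class. Tmprss11a has 8 dKO-only regions, Tmprss11e has the most shared regions (4), Tmprss11g and Tmprss11b have none, and no gene has a WT-only region.

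The dKO-only regions were spread over 5 of the 7 genes and were most numerous in Tmprss11a. Tmprss11a (gene 194597, chr5:86410410-86469175) had 8 dKO-only regions and no other. Tmprss11d (gene 231382, chr5:86302854-86373387) had 3, also with no other. Tmprss11c (gene 435845, chr5:86231481-86289308) had 2 beside 1 shared region, and Tmprss11f (gene 243083, chr5:86521226-86632424) had 1 beside 1. Tmprss11e (gene 243084, chr5:86705186-86745807) had 3 beside 4 shared regions. Tmprss11g (gene 320454, chr5:86485877-86518600) and Tmprss11b (gene 319875, chr5:86659522-86676298) were assigned none in either list. Gene bodies held 21 of the 23 regions, and the others lay 3.91 kb from Tmprss11c and 23.5 kb from Tmprss11e. The latter was the member farthest from its gene, and the next gene, Ythdc1, was 34.7 kb from it.

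At Tmprss11a, 8 peaks of the dKO list stood within 26.8 kb in the part of the gene towards its 3′ end. They are described by the pileup, the number of reads or fragments stacked at the summit, and by the authors' fold enrichment over local background. The strongest lay at chr5:86422739-86423535 with a pileup of 82, a fold of 10.8 and a −log10 q of 56.1. Its fold was above that of 98.1% of the dKO-only peaks of the whole list. The next by significance, at chr5:86436900-86437538, had a pileup of 28 and a fold of 5.57. The other 6 were weaker. A peak at chr5:86410703-86411194, next to the 3′ end of the gene, had a pileup of 18 and a fold of 5.10. Those at chr5:86414228-86414756 and chr5:86421508-86421875 had pileups of 14 and 22 and folds of 4.02 and 3.05. The last 3, between 86429729 and 86435997, had pileups of 13, 18 and 20 and folds of 3.76, 3.46 and 3.95. So 1 strong peak stood among 7 that were ordinary or weak for the list, whose median fold was 6.52. The nearest WT peak to any of the 8 was at least 145.2 kb away.

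Tmprss11d, the airway trypsin-like protease gene, had its 3 dKO-only peaks within 6.11 kb, between 67.3% and 75.1% of the way from its 3′ end to its 5′ end. The strongest, at chr5:86355408-86356257, had a pileup of 59, a fold of 9.28 and a −log10 q of 37.5, and it was the longest of the dKO-only peaks of the cluster at 850 bp. Its neighbours at chr5:86352884-86353222 and chr5:86350153-86350507 had pileups of 37 and 19 and folds of 4.92 and 4.13. Here too a single strong peak stood beside weaker ones, both of them on its 3′ side. The nearest WT peak lay 122.3 kb away or more.

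Tmprss11c held the strongest dKO peak of the cluster by fold, and this one was shared. The region at chr5:86227252-86227901 lies beyond the 3′ end of the gene. Its pileup was 55 in WT and 144 in dKO, its fold 8.91 in WT and 17.95 in dKO, and its −log10 q 34.4 and 128.3. The summits stood at the same base, and the peak was 426 bp long in WT and 650 bp in dKO. The dKO fold exceeded that of 99.5% of all dKO peaks, whereas the WT fold exceeded that of 69.8% of WT peaks. Inside the gene, the dKO-only peaks at chr5:86254816-86255561 and chr5:86248323-86248653 had pileups of 35 and 26 and folds of 9.66 and 7.24. Both were above the median fold of the dKO list, which held for 4 of the 17 dKO-only peaks of the cluster.

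Tmprss11f, the gene of the barrier protease, had few regions for a gene of 111.2 kb. The dKO-only peak at chr5:86530568-86530785 was the shortest of the cluster's dKO peaks at 218 bp and had a pileup of 15 and a fold of 4.29. The shared region at chr5:86582507-86583077 had a pileup of 23 in WT and 24 in dKO. Its fold was 3.82 in WT and 6.71 in dKO, and the peak was 240 bp long in WT and 571 bp in dKO. The summits stood 33 bp apart. This region was thus called in both lists, with the wider peak in dKO.

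The strongest regions of Tmprss11e were open in both genotypes, as was the strongest region of Tmprss11c and of Tmprss11f, while Tmprss11a and Tmprss11d had no shared region. At chr5:86730378-86731649 the pileup was 462 in WT and 199 in dKO, the fold 9.91 and 8.81, and the summits were 1 bp apart. At chr5:86740978-86742295 the pileup was 181 in WT and 142 in dKO, and the fold 12.03 and 12.4. The remaining shared regions, at chr5:86728447-86728978 and chr5:86742743-86743328, had low folds in both lists, 1.84 and 2.69 in WT and 3.14 and 2.78 in dKO. Their pileups were 85 and 40 in WT and 71 and 30 in dKO. The 3 dKO-only peaks had low folds. Those inside the gene, at chr5:86727062-86727539 and chr5:86737983-86738206, had pileups of 72 and 37, −log10 q values of 14.9 and 8.82 and folds of 3.17 and 3.44 over a high local background, and lay 1.17 kb and 2.77 kb from a WT peak. The outlying one, at chr5:86769151-86769490, had a pileup of 12, the lowest of the cluster.

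**Figure D2:**
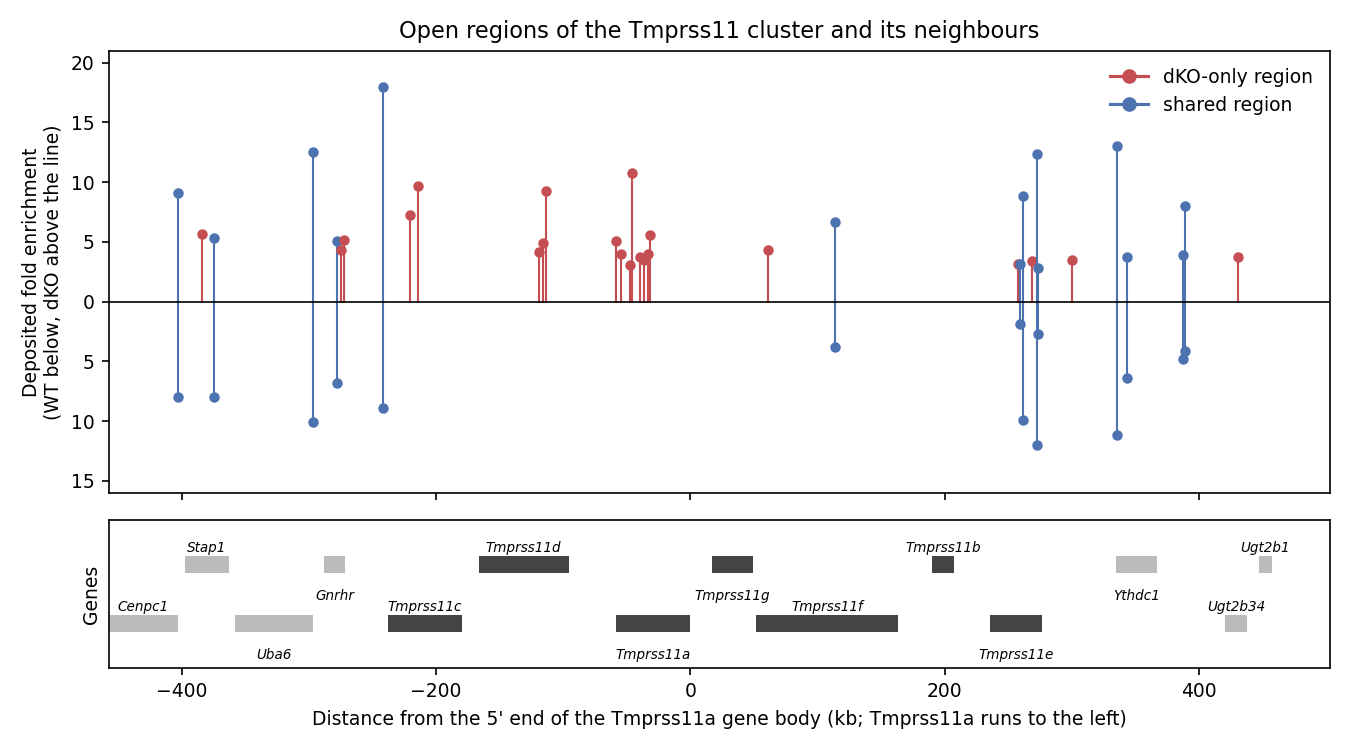
Each line is a region of the chromosome 5 window (x axis, distance from the 5′ end of the Tmprss11a gene body in kb) with the deposited fold enrichment (y axis) in dKO above and in WT below the line at 0, coloured by class, and the gene bodies underneath (Tmprss11 genes dark, others grey). Between the shared regions beside Tmprss11c and in Tmprss11f, every line is dKO-only.

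Along the chromosome, the dKO-only regions of Tmprss11c, Tmprss11d, Tmprss11a and Tmprss11f followed each other without a WT peak between them. This run held 14 regions over 282.5 kb (chr5:86248323-86530785), inside a stretch of 354.9 kb with no WT peak. In the lists as deposited, it was the longest run of consecutive dKO-only regions among 8358 runs, and the longest run of WT-only regions held 10. The length and rank of the run were not counted for stronger peaks only. For peaks with q of 1e-05 or less, the dKO-only regions of all Tmprss11 genes fell from 17 to 12. For single-list peaks in the stronger 50% of their list they fell to 3. Tmprss11a was the 1 gene of 15455 with at least 8 dKO-only regions and no region of another class, a count that fell to 4 for peaks with q of 1e-05 or less and to 1 for single-list peaks in the stronger 50% of their list. In the lists as deposited, 0 genes had at least 8 WT-only regions and no other. At a lower count, 32 genes had 3 or more dKO-only regions and nothing else, and 30 genes had 3 or more WT-only regions and nothing else. Over all assigned regions, 12.8% were dKO-only and 21.2% WT-only. Runs and genes were counted over the lists that chose the cluster.

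The 17 dKO-only peaks had a median strength close to that of all dKO-only peaks, with a few strong ones among them. Their fold ran from 3.05 to 10.8 with a median of 4.13, against a median of 4.29 over all 11250 dKO-only peaks, and 7 of the 17 were above that value. Their median pileup was 22, against 18 over all dKO-only peaks, and their median length 368 bp, against 389 bp. In the stronger 50% of the dKO list by −log10 q stood 3 of the 17, which were the leading peaks of Tmprss11a, Tmprss11d and Tmprss11c. Of all dKO-only peaks 9.47% stood there. A q value of 1e-05 or less was reached by 12 of the 17. The median −log10 q was 7.89 for the 17 and 6.27 over all dKO-only peaks, so at least 50% of all dKO-only peaks reached it too.

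**Figure D3:**
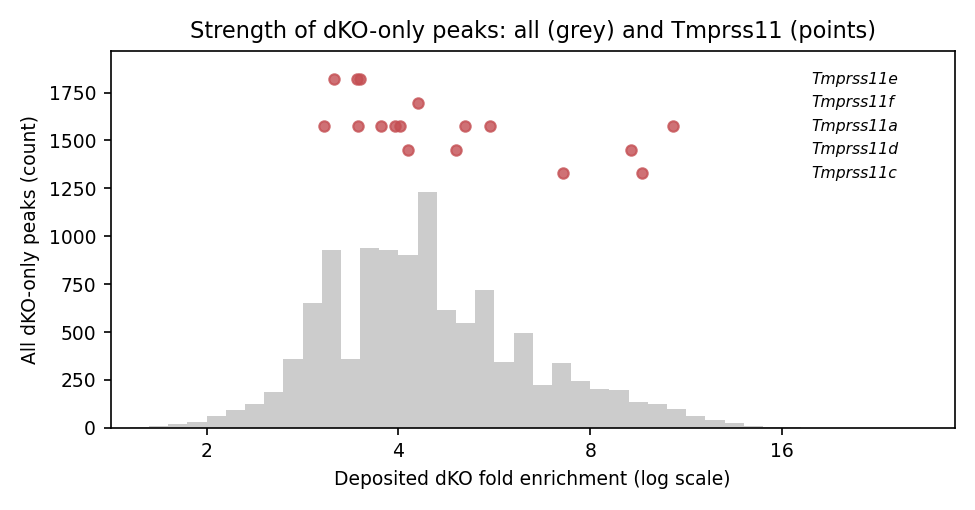
Grey bars count all 11250 dKO-only peaks (y axis) by their deposited fold enrichment (x axis, log scale), and the points above them, whose height only separates the genes, are the 17 dKO-only peaks of the Tmprss11 genes. Most points lie over the bulk of the bars, and the peaks furthest to the right belong to Tmprss11a, Tmprss11c and Tmprss11d.

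The local background behind the peaks divided the cluster as well. It was recovered from pileup and fold, and its most common value, taken as the floor, was 5.29 for WT peaks and 2.73 for dKO peaks. The background stood at this floor for 7 of the 17 dKO-only peaks. Around Tmprss11d it was up to 2.46 times the floor, and around Tmprss11a likewise up to 2.46 times. At the shared regions of Tmprss11e it was 3.72 to 8.02 times the floor in dKO and 2.67 to 8.66 times in WT. Reads were thus dense around that gene in both genotypes. If both lists were called with the same settings, the WT list was 1.94 times as deep by the ratio of these floors. Scaled by this ratio, the pileups of the 17 dKO-only peaks would run from 23.3 to 158.9, with a recomputed −log10 p of 8.63 or more. The lowest pileup of any WT peak was 14 and the lowest deposited −log10 p of the WT list was 2.97. The lowest pileup of any dKO peak was 9, which this scaling would also put above 14. Any dKO peak would thus pass the lowest WT pileup, so the scaled values say nothing about WT signal at these regions. No WT value is known at these regions, and the part of depth in the missing WT peaks was not tested.

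The dKO pileup was below the WT pileup in 4 of the 6 shared regions and above it at Tmprss11c and Tmprss11f, with no scaling for the depth of the lists. Over 49680 shared regions with 1 peak in each list, the median ratio of dKO to WT pileup was 0.472, and 90% of regions lay between 0.210 and 1.19. The ratio was 2.62 at the Tmprss11c region, above 99.5% of all shared regions, and 1.04 at the Tmprss11f region, above 92.8%. At Tmprss11e it was 0.835, 0.431, 0.785 and 0.750 in chromosome order. It exceeded the overall median in 5 of 6 regions, the exception being the strongest region of Tmprss11e. By the ratio of deposited folds, whose median over the 49680 regions was 1.052, 3 of 6 were above it. They were 2.02 at Tmprss11c, 1.76 at Tmprss11f and 1.71 at the Tmprss11e region with the lowest WT fold. The Tmprss11c region was the 1 of 6 whose pileup ratio lay above the range of 90% of regions. For the fold ratio this range was 0.568 to 1.748. The Tmprss11c region lay above it, and the Tmprss11f region, at 1.757, did so by little.

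**Figure D4:**
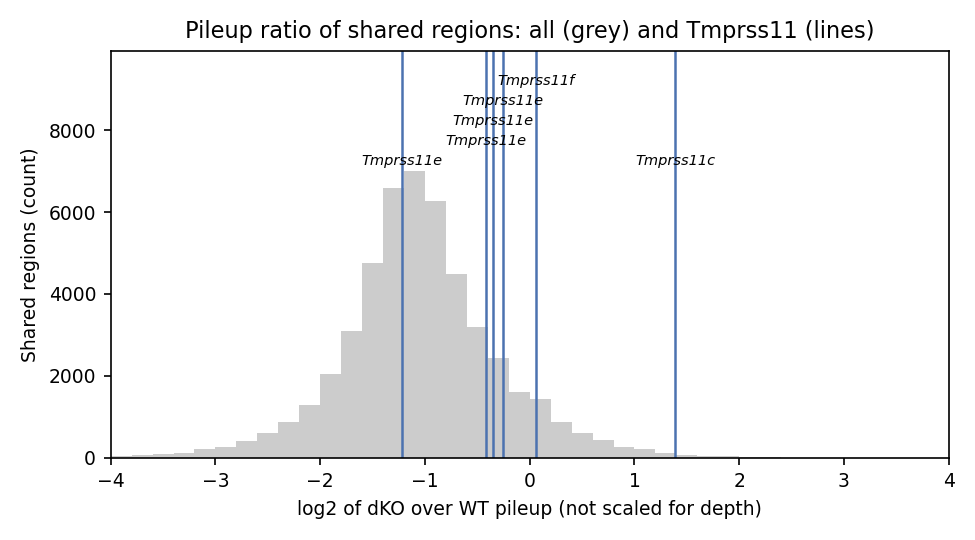
Grey bars count the shared regions with 1 peak in each list (y axis) by the log2 ratio of dKO to WT pileup (x axis, not scaled for depth), and the lines mark the 6 shared Tmprss11 regions, each named by its gene. The Tmprss11c line lies far to the right of the bars' centre, and 1 Tmprss11e line lies close to it.

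None of the 6 listed start sites was near a peak, and the start of Tmprss11e was not assessed. Among 17491 protein-coding genes in the promoter table, 61.3% had a WT peak and 61.2% a dKO peak within 1 kb of a start. Of the 6 Tmprss11 genes in it, 0 had one in either list. The dKO peak nearest to a start was 12.0 kb away for Tmprss11g, 17.1 kb for Tmprss11d, 31.5 kb for Tmprss11a, 33.7 kb for Tmprss11c, 49.3 kb for Tmprss11f and 50.8 kb for Tmprss11b. The peak 12.0 kb from the Tmprss11g start was the dKO-only peak at chr5:86530568-86530785. It lay inside the Tmprss11f gene body and was counted for that gene. The nearest WT peak was 49.5 kb away or more for each of the 6. So the dKO-only regions of Tmprss11a, Tmprss11c, Tmprss11d and Tmprss11f lay inside gene bodies and away from the listed starts.

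The genes on either side of the cluster had shared and dKO-only regions and no WT-only region. In the window of chromosome 5 from 86000000 to 87000000, 35 regions were found, of which 21 were dKO-only, 14 shared and 0 WT-only. Without the Tmprss11 genes there remained 4 dKO-only (33.3%) and 8 shared regions (66.7%). The neighbouring 1 Mb windows held few regions: 1, which was dKO-only, on the side of Cenpc1, and 6 on the side of the Ugt2b genes, of which 3 were dKO-only, 1 WT-only and 2 shared. The regions at the ends of the broadly used genes Cenpc1 (a centromere protein), Uba6 (a ubiquitin-activating enzyme) and Ythdc1 (a reader of methylated RNA) were shared, with WT pileups of 632, 600 and 550 and dKO pileups of 283, 307 and 244. Their dKO to WT ratios of 0.448, 0.512 and 0.444 were close to the median over all shared regions, unlike that of the Tmprss11c region. Gnrhr, the receptor gene for gonadotropin-releasing hormone next to Tmprss11c, had 2 dKO-only and 1 shared region, and its dKO-only peaks had folds of 4.35 and 5.20. Stap1 had 1 dKO-only and 1 shared region, Ythdc1 had 4 shared regions in all, Ugt2b34 had 1 dKO-only region and Ugt2b1 had none. Of 2339 windows of 1 Mb with any region, this was the 1 where dKO-only regions outnumbered WT-only ones by most. The cluster was chosen by this difference, so the rank is a description and carries no test. It was counted in the lists as deposited. For single-list peaks in the stronger 50% of their list, the window kept 3 dKO-only regions of 21, and its rank was not counted there. On the whole of chromosome 5 the order was the opposite, with 638 dKO-only and 922 WT-only regions.

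Related proteases elsewhere in the genome had regions of both kinds. The list of 13 other type II transmembrane serine proteases had 42 regions. Of these, 23 were shared, 12 WT-only (28.6%, 15.7 to 44.6) and 7 dKO-only (16.7%, 6.97 to 31.4). These intervals held the shares over all assigned regions, 21.2% WT-only and 12.8% dKO-only. The WT-only count was the higher one at 6 genes and the lower one at 2, and WT-only regions were also the more numerous over all assigned regions. St14, which encodes matriptase, the main protease of this type in epidermis, had 3 shared, 3 WT-only and 1 dKO-only region. Tmprss13 had 3 shared and 4 WT-only regions. Tmprss15, which encodes enteropeptidase of the gut, had 4 dKO-only regions and no other, and Tmprss2 had 1 dKO-only and 10 shared regions.

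Among inhibitors and substrates of epithelial serine proteases, the dKO-only share was near the 12.8% over all assigned regions. The 14 genes of this list had 51 regions, of which 38 were shared (74.5%), 7 WT-only and 6 dKO-only (11.8%). Spink5, an inhibitor of epidermal proteases, had 1 dKO-only and 8 shared regions. F2rl1, the protease-activated receptor PAR2, had 1 WT-only and 5 shared ones. The sodium channel subunit genes Scnn1b and Scnn1g had 1 WT-only with 3 dKO-only regions and 3 with 0. The 10 epidermal kallikreins, secreted proteases of skin shedding, had 9 shared regions and 2 regions of each other class.

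Of 2 other clustered gene families of surface epithelia, 1 had a dKO-only share above the 12.8% over all assigned regions and 1 a share below it. The epidermal differentiation complex, a cluster of genes for cornified envelope proteins, had 29 dKO-only (22.8%, 15.9 to 31.1), 17 WT-only and 81 shared regions over 66 genes. The dKO-only count was the higher one at 18 genes of the complex and the lower one at 8. Both counts were equal at 40, genes without a region included. The loricrin gene Lor had 3 dKO-only and 1 WT-only region there, and Lce1l had 2 dKO-only regions and no other. In the other direction, Flg2 had 2 WT-only regions and no other, and Hrnr had 2 WT-only and 7 shared regions. The keratin genes had 9 dKO-only (6.47%, 3.00 to 11.9), 37 WT-only and 93 shared regions over 53 genes. Among them Krt14 and Krt5, of basal keratinocytes, had 2 and 1 WT-only regions and 0 dKO-only regions each. The share of the Tmprss11 genes, 73.9%, was used to choose them, which leaves no test of the difference.

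As to the cells, regions were found at all 8 stem cell marker genes, 174 in number, of which 116 were shared (66.7%, close to the 66.0% over all assigned regions), including 8 of 11 at Cd34 and 12 of 22 at Itga6. Markers that the gate should lack also had regions: 2 WT-only, 1 dKO-only and 6 shared over Ly6a (Sca-1), Krt1, Krt10 and Krt79. Ly6a itself had 1 WT-only region, and Krt10, of differentiating epidermis, had 3 shared regions. Markers of fibroblasts, endothelium, immune cells and melanocytes had 48 shared, 22 WT-only (27.5%) and 10 dKO-only (12.5%) regions. Over all assigned regions these shares were 21.2% and 12.8%. Of these 7 genes, 5 had more WT-only than dKO-only regions, and the immune gene Ptprc was the 1 with the reverse, at 0 and 3. The endothelial genes Kdr and Pecam1 had 5 and 0, and 1 and 1. The fibroblast genes Col1a1 and Pdgfra had 3 and 0, and 3 and 1. The part of other cells in the Tmprss11 regions was not tested. The targeted genes Nfib and Nfix had 105 regions, of which 71 were shared, and peak lists do not show whether their floxed exons were lost.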

How the data were processed

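ATAC-seq libraries of 2 WT and 2 dKO mice were sequenced with paired reads of 50 bp, per the labels. The submitters' processing notes name Bowtie2 2.2.9, Picard and MACS2 without role or order, and the builds mm10 and GRCm38. The labels give both mice of a genotype the same peak table, and how pooling, read shifting, duplicates and peak calling were done is not stated there. The deposited lists held 68197 WT and 63548 dKO peaks. The authors' signal values are summit pileups without scaling for depth. In the fold column that the authors deposited, pileup plus 1 is divided by local background plus 1, a ratio. The header cells of the authors' −log10 p and −log10 q columns are damaged. Their place in the MACS2 layout identified them, together with a Poisson p computed from pileup and background. It was within 1% of the deposited −log10 p for 99.98% of 62811 peaks in WT and 99.997% of 62822 peaks in dKO (those with a −log10 p below 250). Their lowest −log10 q was 1.30.

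Mitochondrial peaks (5 WT, 3 dKO) were left out. Peaks of the lists overlapping by at least 1 bp were joined, and region midpoints were given to the nearest of 21896 protein-coding gene bodies of the RefSeq table for GRCm38.p6, ties going to the gene with the lower start. The step gave the same overlapping peaks as bedtools 2.31.1 (difference 0) and, tested on simulated data of 3000 regions, recovered 100% of classes and genes. The simulated regions lay well apart, each closest to its own gene, so they could not test crowded peaks or competing genes. Intervals of shares are exact binomial. Differences between genotypes have no p-value, since each genotype has 1 list. The members, gene lists and alternatives were chosen with earlier results of these data known. Named were all members, all genes of the 1 Mb window, and a few genes of each list, taken from those with a region found in 1 list, plus Krt1 and Krt10 as markers. Which of these few are given was chosen after their counts were seen. For Tmprss11a the promoter was printed as the gene with most regions, and those of Tmprss11c, Tmprss11d and Tmprss11f were added after the data were seen. Python 3.11.15, pandas 2.3.3, numpy 2.4.6 and scipy 1.17.1 were used. Alternatives were other overlap rules, a stricter q value, lists of equal length, a thinned WT list, shorter gene distances and single-list peaks of the stronger 50%.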

Additional observations from a re-analysis of the deposited data

How the results depend on the processing

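The number of WT-only Tmprss11 regions was 0 and that of shared ones 6 under all 8 alternatives. Shortening or thinning the WT list, or lowering the distance to the nearest gene to 20 kb, could not raise this 0. Nor could the limit to stronger single-list peaks, which kept every shared region by its rule. The number of dKO-only regions was 17 with an overlap of 50% of the shorter peak, with summits within 200 bp, with lists of equal length and with the WT list thinned to the dKO background. Equal lengths and thinning removed WT peaks only, so neither could lower this 17. The number of dKO-only regions was 16 with genes within 20 kb or 10 kb. It was 12 for peaks with q of 1e-05 or less (66.7% of the regions kept, against 10.2% over all assigned regions), where Tmprss11a had 4 in place of 8. When a single-list peak had to be in the stronger 50% of its list, which was tried only after the data had been seen, 3 dKO-only Tmprss11 regions were left (33.3% of the regions kept, against 1.58% over all assigned regions), and 3 in the 1 Mb window in place of 21. Otherwise the window had 15 to 22. The 1 Mb window had 1 WT-only region, at Ythdc1, for peaks with q of 1e-05 or less and with summits within 200 bp. The median fold of dKO-only Tmprss11 peaks was 9.66 for the 3 peaks of the stronger 50% and ran from 4.13 to 5.010 under the other 7 alternatives. No paired analysis was possible because each genotype has 1 list and the mouse numbers of the genotypes differ, and no mouse could be left out for the same reason. Depth limits these counts, since true library sizes are not known and weak peaks of either list may be missed in the other.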
